A study of Schizosaccharomyces japonicus with 6 samples.

Results

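The fission yeast *Schizosaccharomyces japonicus* has many genes for which the deposited gene table lists neither an *S. pombe* ortholog nor a gene name, and 147 of the 5272 genes of that table are described here. They were chosen as genes with both entries blank, a number in the locus tag below 10000 and a mean of at least 20 FPKM in the 2 wild-type (WT) libraries. FPKM counts the sequenced fragments of a gene per kilobase of its length, scaled to library depth, so levels of different genes can be compared per length. Without the WT minimum 446 genes met the rule, and 4 further genes were left out by name. The members were thus chosen by their WT level, so that level is a description. Counts of members that differ from WT share the WT libraries with the choice and are descriptions as well. The difference between the 2 mutants does not use the libraries that chose the members. Its standard error and p-value do, because the spread was estimated over all 6 libraries.

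RNA of mid log-phase cells was measured in 3 strains, with 2 libraries per strain. WT was NIG5572, which the study lists as h-, with the D3 allele of *ura4* and the domK allele of *ade6*. *pab2*Δ lacks *pab2*, and the study made such strains by replacing the gene with a natMX6 cassette. *clr4–1* carries a temperature-sensitive allele of *clr4* recovered from random mutagenesis by error-prone PCR, with a substitution in the catalytic domain, so it is not a deletion. The labels give the same growth for all 3 strains, in YES medium (0.5% yeast extract, 3% glucose, and adenine, histidine, leucine and uracil at 75 mg/L each) at 30°C, with no treatment. The full genotypes of the *pab2*Δ and *clr4–1* strains sequenced are not given in the labels, and how many clones of each were used is not given either.

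Pab2 is a nuclear protein that binds the poly(A) tails of RNAs. In *S. pombe* it helps to deliver selected transcripts, among them those of meiotic genes, to the nuclear exosome, which degrades them. Clr4 methylates histone H3 at lysine 9, the mark on which heterochromatin is built. Genes without a recognised ortholog in a related species include young or fast-evolving genes, genes that duplicated in one lineage, and genes whose counterpart is recognisable from its position alone.

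The label "no listed ortholog" holds for the deposited table and not for every source. Of the 147 members, 33 have a description in the supplementary tables of the study, and 19 of these are given an *S. pombe* ortholog there. For 31 of the 33 the description stands in tables of genes that changed in a mutant, and for the other 2 in a table of detected peptides, so having a description is not independent of change. The other 114 members are named by their locus tag alone. In RefSeq annotation (assembly SJ5) 143 members were found, all protein coding, and 4 were not (*SJAG_07001*, *SJAG_07010*, *SJAG_07015* and *SJAG_07017*). Of the 143, 70 (49.0%) overlap another annotated gene, compared with 2758 of 4867 protein-coding genes of the table (56.7%). The libraries were strand-specific, but whether strand was used in the quantification is not given in the sources used here, so values of overlapping genes may share reads.

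The deleted gene *pab2* had a value of 0 in the 2 *pab2*Δ libraries, beside 145 and 142 FPKM for WT and 161 and 174 FPKM for *clr4–1*. *clr4*, which the *clr4–1* allele leaves in place, had levels of 9.34 and 9.48 FPKM with the WT allele and of 19.6 and 23.3 FPKM with the mutant one, so its level does not check that label. FPKM values summed to between 910209 and 1080821 per library, lowest in *pab2*Δ. Depth is unknown, so no counting error can be given, and n is 2 libraries per strain throughout. The labels do not say that replicates were separate cultures, although the study calls them independent experiments, so p-values measure the spread between these libraries.

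WT levels of the members ran from 20.2 to 2080 FPKM, with a median of 48.9 and quartiles of 28.0 and 116 FPKM. The 2838 other genes with a mean of 20 FPKM or more in WT had a median of 53.7 FPKM. None of the members was among the 100 genes with the highest WT level (0 members). Together they held 1.65% and 1.69% of the summed FPKM of the WT libraries, 2.05% and 2.12% of the *pab2*Δ libraries, and 1.5% and 1.53% of the *clr4–1* libraries. The share was therefore higher in both *pab2*Δ libraries and lower in both *clr4–1* libraries than in WT. The members' sum was 17590 and 17693 FPKM in WT, and 18908 and 19313 FPKM in *pab2*Δ. The sum over all genes was 1068001 and 1047611 FPKM in WT, and 920550 and 910209 FPKM in *pab2*Δ. The higher share in *pab2*Δ thus came with a lower total as well as a higher sum of the members. The 10 highest members of each library, which need not be the same genes in every library, held between 40.1% and 46.5% of the members' sum.

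**Figure D1:**
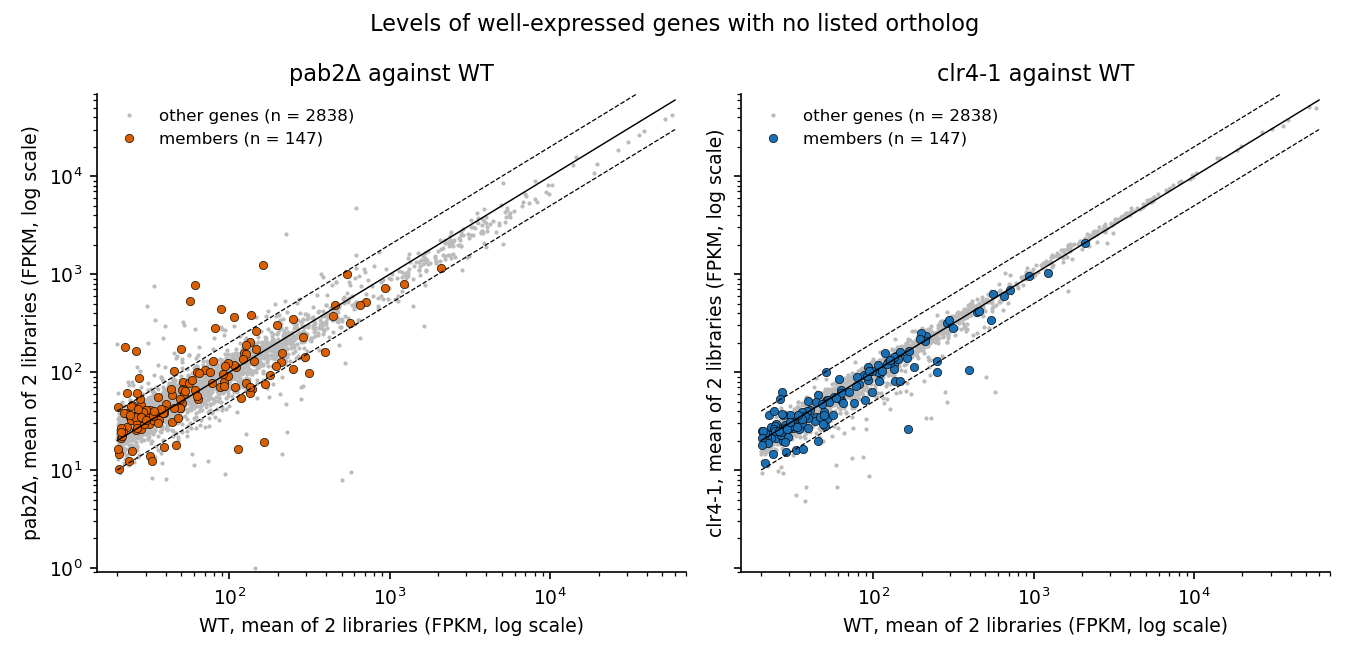
Mean FPKM of 2 libraries in a mutant (vertical, log scale) against the mean in WT (horizontal, log scale), for *pab2*Δ on the left and *clr4–1* on the right. Coloured points are the 147 members and grey points the 2838 other genes with a mean of 20 FPKM or more in WT, the solid line marks equal levels, the dashed lines mark 2-fold differences, and a value under 1 FPKM (*pab2* in *pab2*Δ) is drawn at 1. Members lie farther from the line of equal levels in *pab2*Δ than in *clr4–1*, where 1 member is 2-fold higher and 5 are 2-fold lower in every pair of libraries.

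The most abundant member, *SJAG_03373*, was at 2091 and 2068 FPKM in WT, 1135 and 1169 FPKM in *pab2*Δ, and 2080 and 2108 FPKM in *clr4–1*. It was lower in both *pab2*Δ libraries than in any other library, by 0.85 ± 0.021 (standard error) on the log2(FPKM + 1) scale against WT (adjusted p = 2e-06, limma), while *clr4–1* and WT overlapped. *SJAG_04842* was at 1215 and 1231 FPKM in WT, 783 and 820 FPKM in *pab2*Δ, and 1012 and 1035 FPKM in *clr4–1*, and fell in both mutants. *SJAG_06622* was at 556 and 566 FPKM in WT, 304 and 328 FPKM in *pab2*Δ, and 621 and 645 FPKM in *clr4–1*. It fell in *pab2*Δ and rose in *clr4–1*, though the rise (adjusted p = 0.0206, limma) was lost without any 1 of the WT or *clr4–1* libraries, with adjusted p from 0.0549 to 0.102. Of the 10 most abundant members, *SJAG_05558* was the one that rose in *pab2*Δ. It was at 524 and 555 FPKM in WT, 956 and 1065 FPKM in *pab2*Δ, and 344 and 339 FPKM in *clr4–1*. Its 3 strains did not overlap, and *clr4–1* stood below WT. *SJAG_03058* (445 and 470 FPKM in WT, 474 and 502 FPKM in *pab2*Δ) did not pass the test against WT in either mutant, but was higher in *pab2*Δ when libraries were scaled to the same sum (0.3, adjusted p = 0.00345, limma). The other 5 of the 10 (*SJAG_01874*, *SJAG_02369*, *SJAG_04193*, *SJAG_01129* and *SJAG_01968*) all fell in *pab2*Δ, with *SJAG_01129* losing the call at equal sums (-0.042, adjusted p = 0.23, limma).

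The direct comparison of *pab2*Δ with *clr4–1* asks how the members differ between loss of the poly(A)-binding protein and the altered methyltransferase. It showed 84 members (57.1%) higher and 39 (26.5%) lower in *pab2*Δ than in *clr4–1* at an adjusted p under 0.05 (limma). Among all 4899 genes tested, 61.1% were higher and 17.4% were lower, and among the 2985 genes with the same WT minimum 53.5% and 25.0%, so the members' counts lie near the background. The median log2 difference was 0.23 over the members, 0.27 over all genes tested and 0.16 over genes with the same WT minimum. The quartiles of the members were -0.15 and 0.62. Scaling the libraries by trimmed means (TMM) moved the median of all genes from 0.27 to 0.008 and the median of the members to -0.039, and 56 members were then higher and 56 lower, against 34.4% and 34.5% of all genes. With libraries scaled to the same sum the medians moved the other way, to 0.49 over all genes and 0.46 over the members. A statement that members as a group are higher in *pab2*Δ thus depends on the scaling.

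**Figure D2:**
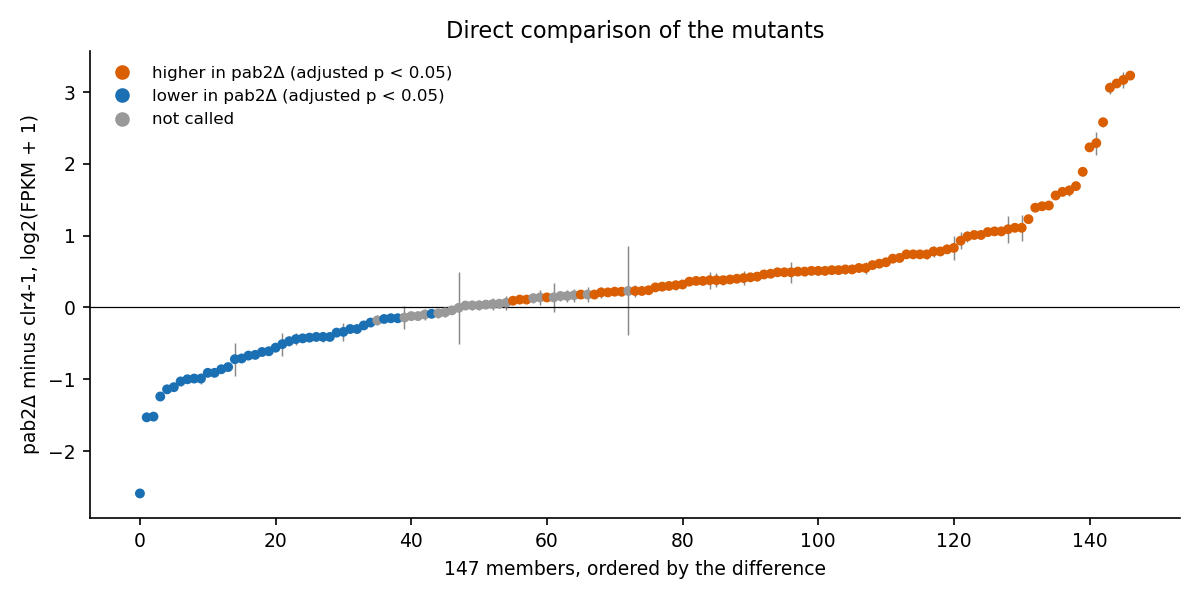
Difference between *pab2*Δ and *clr4–1* in log2(FPKM + 1) for each of the 147 members, ordered by size, with bars for the standard error from limma (n = 2 libraries per strain). The points run from -2.59 to 3.23, with 84 members called higher in *pab2*Δ, 39 called lower and the rest, in grey, not called.

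Larger differences between the mutants were counted where all 4 ratios of a *pab2*Δ to a *clr4–1* library passed 2-fold. This was so for 21 members (14.3%) with the higher level in *pab2*Δ and for 7 (4.76%) with the lower level. Over all genes above 0 in *clr4–1* the percentages were 8.40 and 2.20, and over genes with the same WT minimum 3.65 and 1.47. Among the 2838 other genes with that minimum they were 3.10% and 1.3%. At a ratio of 3 the counts were 10 and 1, and after TMM scaling 15 and 14. For these counts no share over all genes is given, so they describe the members alone.

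At the upper end, *SJAG_01594* was at 57.5 and 57.0 FPKM in WT, 527 and 529 FPKM in *pab2*Δ, and 57.5 and 53.1 FPKM in *clr4–1*. It is described as resembling a TPR-repeat protein of mitochondrial fission. Its *pab2*Δ libraries were far above the 4 others, which overlapped, and the log2 difference between the mutants was 3.23 ± 0.042 (adjusted p = 3.66e-07, limma). *SJAG_01592*, which overlaps it in the annotation, differed by 0.077 between the mutants. *SJAG_01815*, for which an ortholog was proposed from its position in the genome, was at 68.5 and 53.7 FPKM in WT, 746 and 802 FPKM in *pab2*Δ, and 84.9 and 85.0 FPKM in *clr4–1*. It had the largest ratio of *pab2*Δ to WT means of all members, 12.7-fold, with *clr4–1* slightly above WT.

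*SJAG_00625* was at 170 and 154 FPKM in WT, 1253 and 1214 FPKM in *pab2*Δ, and 139 and 143 FPKM in *clr4–1*. It is described as matching an *S. pombe* gene in position but not in amino acids, both possibly being RNAs rather than protein genes. Its level in *pab2*Δ was 7.62 times that in WT, and its overlapping neighbour *SJAG_00624* moved by 0.063 on the log2 scale. The lower level in *clr4–1* than in WT (-0.2, adjusted p = 0.0235, limma) lost the call after TMM scaling (-0.14, adjusted p = 0.085) and without WT replicate 1 or either *clr4–1* library (adjusted p from 0.0634 to 0.113). *SJAG_06471*, annotated as a dubious gene, was at 85.3 and 91.1 FPKM in WT, 443 and 439 FPKM in *pab2*Δ, and 47.8 and 56.9 FPKM in *clr4–1*, so that the mutants lay on either side of WT. The difference between the mutants was 3.06 ± 0.082 (adjusted p = 2.32e-06, limma), and that of its overlapping neighbour *SJAG_04678* was 0.77.

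At the lower end, *SJAG_04927*, described as a nucleoside hydrolase that prefers inosine and uridine, was at 112 and 113 FPKM in WT, 16.7 and 15.8 FPKM in *pab2*Δ, and 106 and 100 FPKM in *clr4–1*. Such enzymes split nucleosides into base and ribose. Both *pab2*Δ libraries were far below the others, with a log2 difference between the mutants of -2.59 ± 0.044 (adjusted p = 6.46e-07, limma). *SJAG_02580*, an extracellular nucleotidase that releases nucleosides from nucleotides, was at 45.9 and 47.0 FPKM in WT, 17.4 and 18.7 FPKM in *pab2*Δ, and 34.5 and 35.2 FPKM in *clr4–1*. It too was lower in *pab2*Δ than in *clr4–1*, with both below WT.

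**Figure D3:**
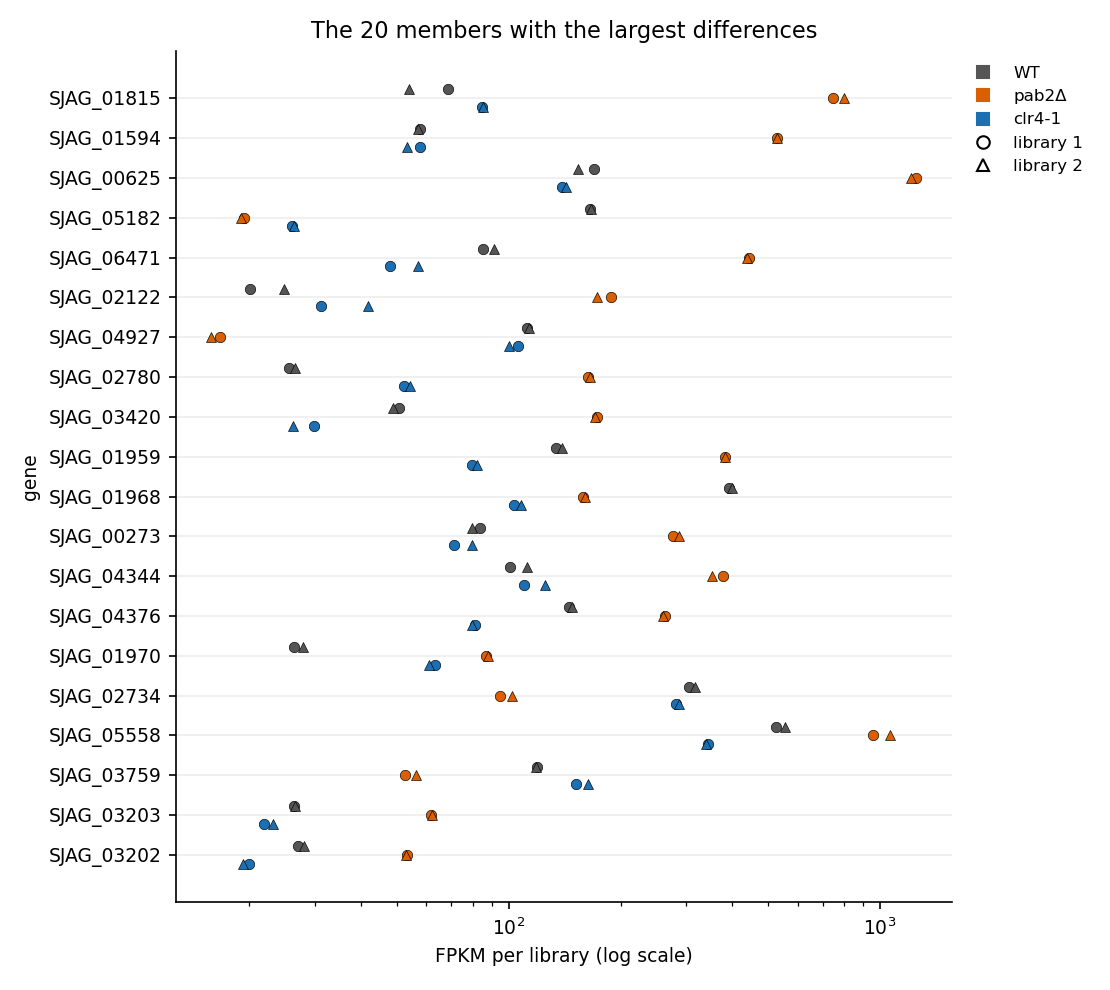
FPKM in each of the 6 libraries (horizontal, log scale) for the 20 members with the largest change of strain mean among those 2-fold apart in every pair of libraries in some comparison. Grey is WT, orange *pab2*Δ and blue *clr4–1*, and circles and triangles tell the 2 libraries of a strain apart. The *pab2*Δ libraries lie to the right of WT for 15 of the 20 and to the left for *SJAG_05182*, *SJAG_04927*, *SJAG_01968*, *SJAG_02734* and *SJAG_03759*, and the *clr4–1* libraries lie far to the left of WT for *SJAG_05182* and *SJAG_01968*.

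Against WT, 66 members (44.9%) were higher and 42 (28.6%) lower in *pab2*Δ (adjusted p under 0.05, limma). The background was 53.8% higher and 19.9% lower over all genes tested, and 47.0% and 28.4% over genes with the same WT minimum. The median log2 difference was 0.17 over the members, with quartiles of -0.28 and 0.49, and 0.19 over all genes. After TMM scaling it was -0.038, the median of all genes was -0.0082, and the counts were 51 higher and 60 lower against 32.8% and 34.5% of all genes. In every pair of libraries, 15 members (10.2%) were over 2-fold higher and 14 (9.52%) over 2-fold lower, compared with 7.60% and 2.02% of all genes, with 2.68% and 2.35% of genes at the same WT minimum, and with 2.29% and 1.97% of the other genes that met the WT minimum.

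In *clr4–1*, 25 members (17.0%) were higher and 55 (37.4%) lower than in WT by the same test, against 15.1% and 27.5% of all genes tested and 18.9% and 30.5% of genes with the same WT minimum. The median was -0.078 over the members and -0.064 over all genes. TMM scaling left 30 higher and 35 lower, against 21.0% and 17.7% of all genes. Leaving out single libraries gave 15 to 23 higher and 34 to 51 lower, with 15 higher without *clr4–1* replicate 1 and 34 lower without WT replicate 1. In every pair of libraries 1 member, *SJAG_01970*, was over 2-fold higher and 5 were over 2-fold lower, compared with 0.796% and 1.18% of all genes. Over genes at the same WT minimum, 1.41% were over 2-fold lower. At the WT minimum of the members, *SJAG_01970* was the 1 gene of the table (0.0335%) over 2-fold higher in every pair.

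The direction of the difference between *pab2*Δ and WT went with the WT level, among the members and among the other genes. Of 77 members from 20 to under 50 FPKM in WT, 36 (46.8%) were higher and 12 (15.6%) lower in *pab2*Δ, with a median log2 difference of 0.23. Among the 1339 other genes of that level 59.5% were higher and 14.4% lower, with a median of 0.21. From 50 to under 100 FPKM, 17 of 28 members (60.7%) were higher and 4 (14.3%) lower, with a median of 0.35. Among the 676 other genes of that level 47.9% were higher and 25.6% lower, with a median of 0.1. From 100 to under 200 FPKM, 11 of 25 members (44.0%) were higher and 12 (48.0%) lower, with a median of 0.04. Among the 384 other genes of that level 34.6% were higher and 39.1% lower, with a median of -0.017. At 200 FPKM and over, 2 of 17 members were higher and 14 (82.4%) lower, with a median of -0.44. Among the 439 other genes of that level 18.9% were higher and 66.3% lower, with a median of -0.25. After TMM scaling the member medians in the 4 classes were 0.023, 0.14, -0.17 and -0.66. Those of the other genes were 0.0017, -0.11, -0.23 and -0.46. In *clr4–1* the 4 medians of the members lay between -0.11 and -0.036. For the other genes of at least 200 FPKM the median in *clr4–1* was 0.071, with 47.4% higher and 22.1% lower, while 3 of the 17 members of that level were higher and 7 lower. Both axes of this description share the WT libraries, so it is not a test.

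**Figure D4:**
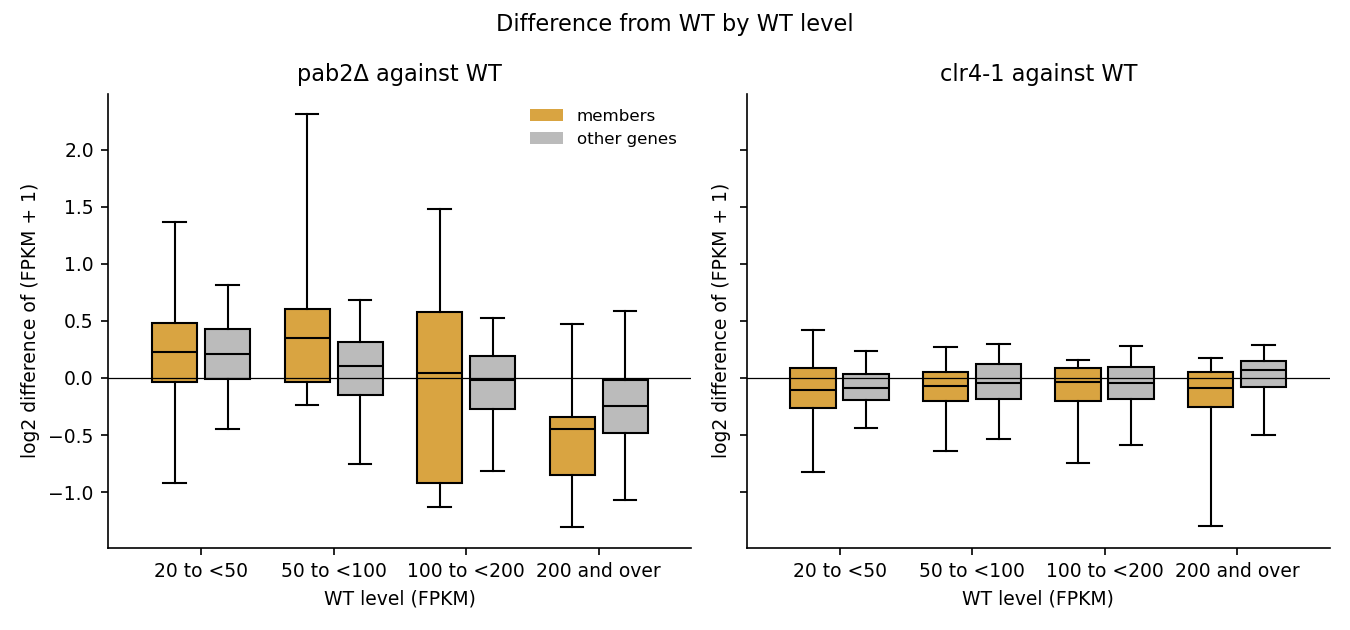
Difference from WT in log2(FPKM + 1) for *pab2*Δ (left) and *clr4–1* (right) in 4 classes of WT level, for members (yellow) and for other genes with a mean of 20 FPKM or more in WT (grey). Boxes span the quartiles with the median as a line, whiskers reach the 5th and 95th percentiles, and genes beyond them are not drawn. The member median in *pab2*Δ goes from 0.23 in the lowest class to -0.44 in the highest, and that of the other genes from 0.21 to -0.25. The member median in *clr4–1* stays between -0.11 and -0.036.

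Calls against WT in the 2 mutants combined in every way. The combinations were counted among the members alone, with no background from other genes, so their sizes do not set the members apart. There were 17 members higher in both, 18 lower in both, 23 higher in *pab2*Δ and lower in *clr4–1*, and 7 lower in *pab2*Δ and higher in *clr4–1*. A further 26 were higher and 17 lower in *pab2*Δ alone, 1 was higher and 14 were lower in *clr4–1* alone, and 24 were called in neither. Both comparisons use the same WT libraries, so a shift of WT enters both, and calling a gene in 1 mutant alone does not show that the mutants differ. In 89 members (60.5%) the 3 strains did not overlap, as in 60.1% of all genes tested. The order *clr4–1*, WT, *pab2*Δ from low to high held for 33 members (22.4%, against 27.5% of all genes), and the order *pab2*Δ, *clr4–1*, WT for 18 (12.2%, against 5.70%). Among the other genes with the same WT minimum the percentage with the second order was 7.82.

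Among members higher in *pab2*Δ and lower in *clr4–1*, *SJAG_03420* followed *SJAG_06471* and *SJAG_00625*, the latter with a call in *clr4–1* that depends on the scaling, in the size of the difference between the mutants. This gene, with an aspartic peptidase domain as found in secreted and vacuolar proteases, was at 50.5 and 48.9 FPKM in WT, 173 and 171 FPKM in *pab2*Δ, and 29.8 and 26.2 FPKM in *clr4–1*. The log2 difference between the mutants was 2.58 ± 0.061 (adjusted p = 1.77e-06, limma). *SJAG_01959*, of the But2 family, was at 134 and 139 FPKM in WT, 382 and 382 FPKM in *pab2*Δ, and 79.8 and 82.0 FPKM in *clr4–1*. Its overlapping neighbour *SJAG_01958* was 1.04 higher on the log2 scale in *pab2*Δ than in WT, beside 1.48 for *SJAG_01959*, and 0.24 higher in *clr4–1*. *SJAG_04376*, described as the ortholog of human RTN4IP1, a mitochondrial oxidoreductase, was at 145 and 148 FPKM in WT, 264 and 260 FPKM in *pab2*Δ, and 81.0 and 79.5 FPKM in *clr4–1*. In each of these genes the 3 strains were clearly separate.

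Members of related function moved in different directions. Of the 3 described as transporters of the major facilitator superfamily, membrane proteins that carry small solutes, *SJAG_05182* was at 165 and 166 FPKM in WT, 19.4 and 19.0 FPKM in *pab2*Δ, and 26.0 and 26.3 FPKM in *clr4–1*. It had the largest decrease of all members in both mutants, -3.04 ± 0.031 (adjusted p = 1.99e-07, limma) and -2.61 ± 0.031 (adjusted p = 8.36e-07, limma). *SJAG_04828* was at 44.2 and 45.5 FPKM in WT, 43.1 and 42.5 FPKM in *pab2*Δ, and 20.1 and 19.9 FPKM in *clr4–1*. The decrease was over 2-fold in *clr4–1*, and the value in *pab2*Δ did not pass the test without further scaling (-0.068, adjusted p = 0.119, limma) but was lower after TMM scaling (-0.28, adjusted p = 0.000787). *SJAG_01033* was at 45.6 and 44.7 FPKM in WT, 105 and 103 FPKM in *pab2*Δ, and 58.6 and 58.5 FPKM in *clr4–1*, higher than WT in both mutants.

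Of the other transporters, *SJAG_03608*, of a plasma membrane sugar transporter family, was at 249 and 248 FPKM in WT, 109 and 108 FPKM in *pab2*Δ, and 100 and 100 FPKM in *clr4–1*. It fell by 1.19 ± 0.025 in *pab2*Δ and by 1.3 ± 0.025 in *clr4–1* on the log2 scale, and the mutants differed from each other by 0.11 ± 0.025, a small difference whose sign turned under TMM scaling. *SJAG_02780*, described as a transmembrane transporter, was at 25.5 and 26.5 FPKM in WT, 163 and 165 FPKM in *pab2*Δ, and 52.1 and 54.1 FPKM in *clr4–1*. It rose in both mutants and was 3.09 times as high in *pab2*Δ as in *clr4–1*. The overlapping gene *SJAG_02779* was 0.27 higher in *pab2*Δ and 0.3 higher in *clr4–1* on the log2 scale.

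The 5 members described with names of enzymes of sugar breakdown and fermentation were all lower in *pab2*Δ than in WT and than in *clr4–1*. Over all genes tested 19.9% were lower than in WT and 17.4% lower than in *clr4–1*. These 5 were gathered after their values were seen, from descriptions given for genes that changed, so the shared direction is no evidence about such enzymes as a group. *SJAG_02734*, of the family of pyruvate decarboxylase, which makes acetaldehyde from pyruvate, was at 306 and 318 FPKM in WT, 94.5 and 102 FPKM in *pab2*Δ, and 282 and 288 FPKM in *clr4–1*. *SJAG_01414*, an alcohol dehydrogenase resembling Adh1, which makes ethanol from acetaldehyde, was at 295 and 300 FPKM in WT, 141 and 142 FPKM in *pab2*Δ, and 334 and 339 FPKM in *clr4–1*. The log2 differences between *pab2*Δ and *clr4–1* were -1.53 ± 0.044 (adjusted p = 2.7e-06, limma) for the former and -1.24 ± 0.023 (adjusted p = 9.98e-07, limma) for the latter.

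*SJAG_03196*, an alcohol dehydrogenase of unknown specificity, was at 30.8 and 33.3 FPKM in WT, 13.7 and 14.1 FPKM in *pab2*Δ, and 28.3 and 30.7 FPKM in *clr4–1*. It overlaps *SJAG_03197*, whose mean was 3996 FPKM with WT cells, 1900 FPKM with *pab2*Δ and 4054 FPKM with *clr4–1*, and the log2 differences from WT in *pab2*Δ were -1.15 and -1.07. Whether reads of the abundant gene entered the value of the other was not tested. *SJAG_02135* and *SJAG_02945*, both described as glyceraldehyde 3-phosphate dehydrogenases of glycolysis, were given the same *S. pombe* ortholog. *SJAG_02135* was at 137 and 141 FPKM in WT, 64.8 and 68.1 FPKM in *pab2*Δ, and 147 and 148 FPKM in *clr4–1*. *SJAG_02945* was at 165 and 170 FPKM in WT, 74 and 77.8 FPKM in *pab2*Δ, and 165 and 166 FPKM in *clr4–1*. Both were lower in *pab2*Δ than in the 4 other libraries, and as how reads that fit several genes were treated is not given in the sources used here, their values are uncertain if their sequences are alike.

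Genes with the same listed domain also went apart. *SJAG_01968* has an aspartic peptidase domain, like *SJAG_03420*, and was at 392 and 398 FPKM in WT, 158 and 160 FPKM in *pab2*Δ, and 103 and 108 FPKM in *clr4–1*. It fell in both mutants, by 1.31 ± 0.032 (adjusted p = 1.81e-06, limma) and 1.89 ± 0.032 (adjusted p = 2.57e-06, limma), where *SJAG_03420* rose in *pab2*Δ. *SJAG_01970*, of the histidine phosphatase superfamily, was at 26.4 and 27.9 FPKM in WT, 86.7 and 88.0 FPKM in *pab2*Δ, and 63.1 and 61.0 FPKM in *clr4–1*. *SJAG_03759*, of the same superfamily, was at 119 and 118 FPKM in WT, 52.4 and 56.2 FPKM in *pab2*Δ, and 152 and 163 FPKM in *clr4–1*. The first rose in both mutants, and the other fell in *pab2*Δ and rose in *clr4–1*.

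Of the 2 members described as flocculins, cell-surface proteins through which yeast cells adhere, *SJAG_02987* was at 133 and 136 FPKM in WT, 59.9 and 61.3 FPKM in *pab2*Δ, and 108 and 109 FPKM in *clr4–1*. It fell in both mutants. *SJAG_00239*, with a GLEYA adhesin domain, was at 23.2 and 22.9 FPKM in WT, 60.4 and 61.9 FPKM in *pab2*Δ, and 28.0 and 27.4 FPKM in *clr4–1*. It rose in both, by 1.37 ± 0.035 in *pab2*Δ and 0.25 ± 0.035 in *clr4–1* on the log2 scale. *SJAG_03331*, described as expressed during the meiotic cycle, was at 21.1 and 19.3 FPKM in WT, 43.4 and 44.0 FPKM in *pab2*Δ, and 24.3 and 25.8 FPKM in *clr4–1*.

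The 3 members described as specific to *S. japonicus* or to the genus rose in *pab2*Δ, as did 53.8% of all genes tested. Their descriptions stand in tables of changed genes, so nothing can be read from the count. *SJAG_02122*, a low-complexity glycine-rich protein, was at 20.1 and 24.8 FPKM in WT, 189 and 173 FPKM in *pab2*Δ, and 31.2 and 41.8 FPKM in *clr4–1*. Its ratio of *pab2*Δ to WT means was 8.04, and the *clr4–1* libraries lay above both WT libraries. *SJAG_00273* was at 83.7 and 79.5 FPKM in WT, 276 and 287 FPKM in *pab2*Δ, and 71.0 and 79.7 FPKM in *clr4–1*. *SJAG_04344* was at 101 and 112 FPKM in WT, 378 and 353 FPKM in *pab2*Δ, and 110 and 125 FPKM in *clr4–1*. Neither of these passed the test in *clr4–1* against WT. *SJAG_04962*, described from the peptide table as a candidate ortholog of Iss10, which in *S. pombe* takes part in eliminating meiotic RNAs, was at 24.8 and 26.6 FPKM in WT, 34.5 and 35.5 FPKM in *pab2*Δ, and 24.9 and 25.5 FPKM in *clr4–1*.

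The remaining large decreases were of genes of little known function. *SJAG_04365*, with a SERF-like N-terminus, was at 31.3 and 34.7 FPKM in WT, 11.8 and 12.7 FPKM in *pab2*Δ, and 18.0 and 13.8 FPKM in *clr4–1*. *SJAG_03565* and *SJAG_04730* are described as intrinsically disordered proteins with a proposed ortholog in the same genomic position. *SJAG_03565* was at 39.9 and 38.4 FPKM in WT, 16.3 and 18.2 FPKM in *pab2*Δ, and 27.7 and 26.3 FPKM in *clr4–1*, whereas *SJAG_04730* was at 37.3 and 35.6 FPKM in WT, 36.7 and 27.6 FPKM in *pab2*Δ, and 16.4 and 16.0 FPKM in *clr4–1*. The lowest level was thus in *pab2*Δ for the former and in *clr4–1* for the latter, which passed the test in *pab2*Δ against WT after TMM scaling (-0.39, adjusted p = 0.0336, limma) but not without it (-0.19, adjusted p = 0.219).

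In all, 39 members were 2-fold apart in every pair of libraries in at least 1 of the 3 comparisons. No such count over all genes is given here. Of the 39 members, 7 have no description. They are *SJAG_05558*, given above, and *SJAG_03202*, *SJAG_00398*, *SJAG_02154*, *SJAG_05617*, *SJAG_03225* and *SJAG_00242*. In all 7 the level of *pab2*Δ was above that of *clr4–1*, and none was 2-fold apart from WT in every pair. That they have no description goes with not being in the tables of changes against WT. *SJAG_00398* was at 252 and 245 FPKM in WT, 335 and 355 FPKM in *pab2*Δ, and 127 and 131 FPKM in *clr4–1*. *SJAG_02154* was at 50.3 and 51.9 FPKM in WT, 81.9 and 76.9 FPKM in *pab2*Δ, and 33.6 and 32.8 FPKM in *clr4–1*. In both genes the WT libraries lay between those of the mutants, as they did in *SJAG_03225* and *SJAG_00242*. *SJAG_05617*, at 34.3 and 22.7 FPKM in WT, 35.4 and 33.4 FPKM in *pab2*Δ, and 16.3 and 14.4 FPKM in *clr4–1*, overlapped between WT and *pab2*Δ. It overlaps *SJAG_01255*, which was 2.26 higher on the log2 scale in *pab2*Δ than in *clr4–1*, beside 1.11 for *SJAG_05617*.

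In RefSeq order 13 pairs of members were adjacent, none of them overlapping. *SJAG_03202* was at 27.0 and 28.1 FPKM in WT, 53.2 and 53.0 FPKM in *pab2*Δ, and 20 and 19.2 FPKM in *clr4–1*. Its neighbour *SJAG_03203*, described as resembling the transmembrane proteins GPR107 and GPR108, was at 26.4 and 26.5 FPKM in WT, 61.6 and 62.0 FPKM in *pab2*Δ, and 21.9 and 23.2 FPKM in *clr4–1*, so both had the same order of strains. *SJAG_06621* was at 191 and 197 FPKM in WT, 114 and 115 FPKM in *pab2*Δ, and 213 and 220 FPKM in *clr4–1*, the same order as its neighbour *SJAG_06622*. Other neighbours went opposite ways. The log2 differences of *SJAG_01968* and *SJAG_01970* were -1.31 and 1.65 in *pab2*Δ, beside -1.89 and 1.16 for the *clr4–1* strain. *SJAG_03829*, at 49.1 and 52.6 FPKM in WT, 65.2 FPKM in both *pab2*Δ libraries, and 99.0 and 101 FPKM in *clr4–1*, was higher than WT in both mutants. *SJAG_03828* beside it was at 132 and 136 FPKM in WT, 69.3 and 72.3 FPKM in *pab2*Δ, and 140 and 144 FPKM in *clr4–1*. Against WT these 2 genes went opposite ways in *pab2*Δ alone, as in *clr4–1* both log2 differences were positive (0.96 and 0.083). That of *SJAG_03828* in *clr4–1* did not pass the test (adjusted p = 0.112, limma). These pairs were picked after their values were seen.

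At the stable end, 18 members were called in none of the 3 comparisons and 61 in all 3. No such counts over all genes are given here, so they do not set the members apart from other genes. The 4 with the smallest range over the 6 libraries were *SJAG_03360* (89.0 to 97.4 FPKM), *SJAG_02139* (71.1 to 78.7 FPKM), *SJAG_01994* (20.6 to 23.3 FPKM) and *SJAG_02557* (126 to 143 FPKM). Of these, *SJAG_03360* and *SJAG_01994* passed the test in no comparison without further scaling. After TMM scaling the *pab2*Δ values of both were lower than WT, by 0.16 and 0.14 on the log2 scale. With libraries scaled to the same sum they were higher than WT, each by 0.26 (adjusted p = 0.00338 and 0.00628, limma). The direction for these genes thus depends on the scaling.

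Replicates of a strain differed by a median of 0.0483 on the log2 scale among the members for WT, by 0.0619 for *pab2*Δ and by 0.0521 for *clr4–1*, compared with 0.0403, 0.0456 and 0.0432 among the 2838 other genes. A difference over 0.5 was seen in 8 members, namely 3 in WT (2.04%, against 0.388% of the other genes), 2 in *pab2*Δ (1.36%, against 0.529%) and 4 in *clr4–1* (2.72%, against 0.564%), 1 of them in 2 strains. That member, *SJAG_07001*, was at 27.8 and 26.4 FPKM in WT, 23.8 and 60.9 FPKM in *pab2*Δ, and 57.5 and 18.0 FPKM in *clr4–1*, and has no RefSeq entry under its tag. *SJAG_00658* was at 26.6 and 21.0 FPKM in WT, 12.8 and 12.1 FPKM in *pab2*Δ, and 22.9 and 6.61 FPKM in *clr4–1*. Neither was called in any comparison. *SJAG_05889* was at 19.7 and 28.6 FPKM in WT, 37.1 and 35.3 FPKM in *pab2*Δ, and 40.8 and 39.4 FPKM in *clr4–1*, and passed the test against WT in both mutants although its WT libraries differed by over 0.5 log2 units. Against WT the *pab2*Δ call (0.59, adjusted p = 0.0167, limma) was lost after TMM scaling (0.38, adjusted p = 0.0778) and without either *pab2*Δ library, and the *clr4–1* call (0.73, adjusted p = 0.0153) without either *clr4–1* library.

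**Figure D5:**
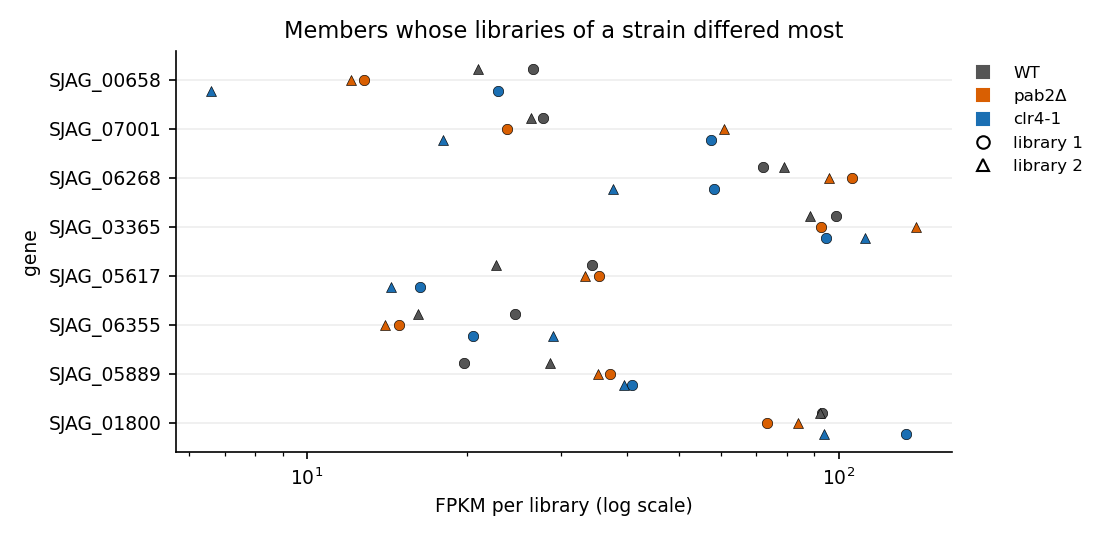
FPKM in each of the 6 libraries (horizontal, log scale) for the 8 members with a difference between the libraries of a strain of over 0.5 on the log2(FPKM + 1) scale. Grey is WT, orange *pab2*Δ and blue *clr4–1*, and circles and triangles tell the 2 libraries of a strain apart. For *SJAG_07001* both mutants span the WT values, and for *SJAG_00658* 1 *clr4–1* library lies at 6.61 FPKM and the other at 22.9 FPKM.

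Just inside the WT minimum lay *SJAG_03331* (WT mean 20.2 FPKM), *SJAG_07010* (20.3 FPKM), *SJAG_06596* (20.4 FPKM) and *SJAG_06355* (20.4 FPKM). Just outside lay *SJAG_04567* (19.6 FPKM), *SJAG_01451* (19.5 FPKM), *SJAG_01973* (19.2 FPKM) and *SJAG_01395* (19.0 FPKM). *SJAG_04567* was at 20.2 and 19.1 FPKM in WT, 158 and 159 FPKM in *pab2*Δ, and 26.0 and 20.8 FPKM in *clr4–1*, so a gene with a large difference fell just outside the list. With the minimum set on the 4 mutant libraries in place of WT, 169 genes met the rule, and 140 of them were members.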

How the data were processed

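The authors deposited 1 table with a value for each of 5272 genes in 6 libraries and 4 ratio columns of the authors' own comparisons, which were not used. The deposited values were taken as FPKM because they are fractional and sum to different totals per library. The submitters' processing notes name FastQC 0.11.6, STAR 2.5.3a and StringTie 1.3.1c. The genome build is not given in the sources used here, so no coordinates are printed, and no whole reads could be recovered, so depth is unknown. Total RNA was isolated, and the libraries made from it were strand-specific. The study's methods do not say whether poly(A) RNA was selected or ribosomal RNA removed.

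The 4899 genes whose mean over the 6 libraries reached 1 FPKM were transformed as log2(FPKM + 1). A single linear model of the strains was fitted in R 4.3.3 with limma 3.58.1, with an intensity trend and Benjamini-Hochberg adjustment over all genes tested. Genes were called at an adjusted p-value under 0.05, and all 147 members passed the filter. Fold changes on this scale understate those of low genes. A second rule required all 4 ratios between libraries of 2 strains to pass 2, with no pseudocount. TMM factors were unweighted and trimmed 30% of log ratios and 5% of levels. Figures were drawn with matplotlib 3.10.9 in Python 3.11.15.

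The members and lists were chosen with earlier results of these data known. Genes named are the 10 most abundant members, the 6 largest increases and decreases called in each comparison, the 20 largest changes among members 2-fold apart, the 4 largest opposite calls, the 4 most even members and the 4 genes on either side of the WT minimum. Other genes were named for their description, their neighbour or their replicate spread after their values were seen. Names and descriptions came from the study's supplementary tables, and gene order and overlap from RefSeq (assembly SJ5). Classes by annotated product, protein length and promoter words were not analysed here.

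Alternatives were pseudocounts of 0.1 and 5 FPKM, a filter at 5 FPKM or none, TMM and TPM scaling, fits of 4 libraries, no trend, a replicate block, other minimums for the members, a ratio of 3, ratios of strain means, and leaving out each library.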

Additional observations from a re-analysis of the deposited data

How the results depend on the processing

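The count of members higher in *pab2*Δ than in WT was 112 at a WT minimum of 10 FPKM (224 genes) and 30 at 50 FPKM (70 genes), beside 66. Against *clr4–1* these counts were 135 and 36, beside 84. In *clr4–1* against WT, 11 were higher and 27 lower at 50 FPKM, and 38 were higher with members chosen on the mutant libraries. TMM scaling gave 35 lower in *clr4–1*. The lists at 10 and 50 FPKM are longer and shorter by construction. For the counts of this paragraph no shares over all genes are given beside them, so they do not set the members apart from other genes. The list chosen on the mutant libraries holds 169 genes, of which 140 were members. Genes high in a mutant enter this list by the choice itself, so its count of 38 higher in *clr4–1* is a description. How far the choice raised that count was not tested. At a ratio of 3 in every pair of libraries, 3 members were lower in *pab2*Δ than in WT, 0 were higher and 2 lower in *clr4–1* than in WT, and 10 were higher and 1 lower in *pab2*Δ than in *clr4–1*. The 0 is a count over single ratios. By limma, 25 members were called higher in *clr4–1* than in WT. Strain means and TMM scaling each gave 2 members 2-fold higher in *clr4–1* than in WT, and TMM scaling gave 14 members 2-fold lower in *pab2*Δ than in *clr4–1*.

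Under TMM scaling the median difference of the members was -0.038 for *pab2*Δ against WT, -0.013 for *clr4–1* against WT and -0.039 for *pab2*Δ against *clr4–1*. With libraries scaled to the same sum these medians were 0.37, -0.098 and 0.46. Single small differences turned. For *pab2*Δ against WT, *SJAG_03360* (-0.16) and *SJAG_01994* (-0.14) turned under TMM scaling, and *SJAG_04828* (0.14), *SJAG_02139* (0.19) and *SJAG_02557* (0.064) when libraries were scaled to the same sum (TPM). For *pab2*Δ against *clr4–1*, *SJAG_03058* (-0.064), *SJAG_03608* (-0.17), *SJAG_03360* (-0.24) and *SJAG_02139* (-0.18) turned under TMM scaling, and *SJAG_01129* (0.067), *SJAG_01994* (0.18) and *SJAG_02557* (0.14) under TPM scaling. The cause was not tested. Of 1260 values of named members under alternatives, 1165 kept sign and side of the threshold, 51 lost the call and 18 gained it. In 12 the sign turned with the value called on at least 1 side, and in 14 it turned with neither value called.

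Leaving out each library gave 60 to 70 members higher and 42 to 43 lower in *pab2*Δ than in WT, 15 to 23 higher and 34 to 51 lower in *clr4–1* than in WT, and 76 to 82 higher and 34 to 38 lower in *pab2*Δ than in *clr4–1*. A strain left with 1 library is assumed to vary like the others. WT and *clr4–1* share replicate numbers, and the deviations of equal numbers correlated at -0.0945 across genes. This value cannot show whether libraries of equal number were grown or prepared together. A replicate block gave 21 members higher and 47 lower in *clr4–1* than in WT. No paired analysis was made for *pab2*Δ because its columns carry no replicate number. Other alternatives kept the counts within 1.5 times. FPKM gives no depth, so the precision of low values is known from 2 libraries per strain alone.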
